A study of Homo sapiens with 12 samples.

Results

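The 48 genes described here encode the proteins that copy DNA in S phase of the cell cycle, supply its nucleotides, rebuild chromatin behind the fork or control entry into S phase. They were taken by symbol from a list of named genes. All 48 were found among the 60617 genes of the deposited count table, and all 48 had enough counts to be among the 18524 genes tested. RNA was sequenced from A549, a line derived from a human lung adenocarcinoma, in 4 groups of 3 libraries. In the combined group (YTHDF1 KO + siARID1A) YTHDF1 was knocked out and ARID1A was silenced with a small interfering RNA. In the YTHDF1 KO group only YTHDF1 was knocked out, in the siARID1A group only ARID1A was silenced, and the WT group was A549 without either change. YTHDF1 binds N6-methyladenosine in RNA, and ARID1A is a DNA-binding subunit of the SWI/SNF chromatin remodeller. The genotype field and the series design speak of a YTHDF1 knockout, whereas the sample titles use the word knockdown. The labels do not say if the knockout cells were cloned, and they mention no control small interfering RNA for the WT and YTHDF1 KO groups. The titles number the libraries of each group as biological replicates, but no label ties them to separate cultures. The p-values below therefore set differences between groups against the spread between libraries.

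Replication starts at origins that are marked by the origin recognition complex. In G1 phase CDC6 and CDT1 load the MCM2-7 helicase there, a step called licensing, and geminin (GMNN) prevents a repeat of it later in the cycle. In S phase CDC45 and the GINS proteins join the MCM ring to make the active helicase. DNA polymerase alpha and primase lay down primers, polymerases epsilon and delta extend them, PCNA holds the polymerases on DNA, and FEN1 and LIG1 join the fragments of the lagging strand. Many of these genes are transcribed under E2F factors, which retinoblastoma family proteins repress until cyclin-dependent kinases, among them cyclin E with CDK2, release them. S phase genes are therefore commonly read as markers of proliferating cells in tumour lines such as A549.

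Library totals ran from 30220717 to 45042635 counts. Levels are given as CPM, the counts of a gene scaled to a common library size after adjustment by trimmed means (TMM), with SD and n = 3 where a mean is given. YTHDF1 had 32.2, 30.4 and 30.2 CPM in the combined group, 26.7, 25.3 and 22.6 in YTHDF1 KO, 98.4, 102 and 92.96 in siARID1A and 88.3, 90.7 and 85.6 in WT, and ARID1A had 46.7, 58.3 and 57.6 CPM in the combined group, 174, 154 and 153 in YTHDF1 KO, 44.9, 40.99 and 41.6 in siARID1A and 168, 176 and 148 in WT. Each transcript was lower in every library labelled for its loss than in every library without that label, although RNA of both remained. The epithelial keratins KRT8 and KRT18 were abundant in all 12 libraries. The epithelial markers KRT19 and EPCAM were low, with 0 to 40 and 14 to 329 raw counts per library. The alveolar markers SFTPA1, SFTPB, SFTPC, SFTPD and NKX2-1 were at or near 0. The 12 alveolar and A549 epithelial markers summed to 4178 to 4495 CPM in the combined group, 3293 to 3571 in YTHDF1 KO, 12212 to 14848 in siARID1A and 11496 to 14942 in WT. Of the 7 with enough counts, 6 were called lower and 0 higher in YTHDF1 KO than in WT, where 20.8% and 19.6% of all genes were. Against WT, 5 were lower and 0 higher in the combined group (25.9% and 25.6% of all genes). In siARID1A 1 was lower and 4 were higher (23% and 22.1% of all genes). The part of these differences in the results below was not tested. The 16 blood, endothelial, stromal and neural markers summed to 40.8 to 57.7, 46.2 to 51.2, 45.5 to 63.3 and 37.0 to 62.8 CPM in the same order of groups, mostly from COL1A1 and ACTA2. Single markers differed, as 7 had enough counts and 4, 2 and 2 of them were called higher than in WT in the first 3 groups. Of all genes, 25.6%, 19.6% and 22.1% were higher there, and 0 of the 7 were lower. COL3A1 had 157, 268 and 244 raw counts in the combined group, 197, 258 and 222 in YTHDF1 KO, 18, 15 and 8 in siARID1A and 6, 4 and 9 in WT. WT replicate 2 stood apart, with 4.85% of its counts from mitochondrially encoded genes against 6.81% to 8.23% in the other 11 libraries. Counts below are therefore also given without it. Of the 48 genes, 21 share exon sequence with another annotated gene, and the strand setting of the counting is not given in the sources used here. The longest shared parts were those of TYMS (39.1% of its exon length), CCNE2 (37%), POLA2 (35.1%), MCM2 (22.7%) and GINS4 (21.2%), and PCNA, RFC3, RFC5, POLD2, FEN1, RPA2, RRM2 and TYMS have named pseudogenes, so the values of these genes are less certain.

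Silencing of ARID1A in WT cells was accompanied by lower RNA for nearly the whole set. Of the 48 genes, 41 were lower and 1, the cyclin gene CCNE1, was higher in siARID1A than in WT at an adjusted p under 0.05, in edgeR's quasi-likelihood test with Benjamini-Hochberg adjustment over all 18524 genes. Of all genes tested, 23% were lower and 22.1% were higher in that comparison. The median log2 fold change was -0.51 over the 48 genes and -0.01 over all genes. The RNA came from bulk samples, where fewer cells in S phase and less RNA per cell cannot be told apart. All 3 siARID1A libraries lay below all 3 WT libraries for 40 of the 48 genes and for 25.5% of all genes, and above them for 1 gene and for 24.7% of all genes. Without WT replicate 2 the count was 40 lower and 1 higher, and without siARID1A replicate 3 it was 38 lower and 1 higher.

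Fewer of the genes were called with YTHDF1 knockout. In YTHDF1 KO against WT, 16 of the 48 genes were lower and 3 were higher, with a median log2 fold change of -0.14 over the 48 genes and -0.01 over all genes. Of all genes tested, 20.8% were lower and 19.6% were higher (40.4% in either direction). The YTHDF1 KO libraries lay below those of WT without overlap for 21 of the 48 genes and for 24.6% of all genes, and above for 7 and for 24.1%. In the combined group against WT, 28 were lower and 3 were higher, where 25.9% of all genes were lower and 25.6% were higher, 51.5% in either direction. The combined libraries lay below those of WT without overlap for 32 of the 48 genes and for 27.9% of all genes, and above for 5 and for 28.2%. The median there was -0.23 over the 48 genes and -0.01 over all genes. Without WT replicate 2 these counts were 15 lower and 3 higher for YTHDF1 KO, and 28 lower and 2 higher for the combined group.

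**Figure D1:**
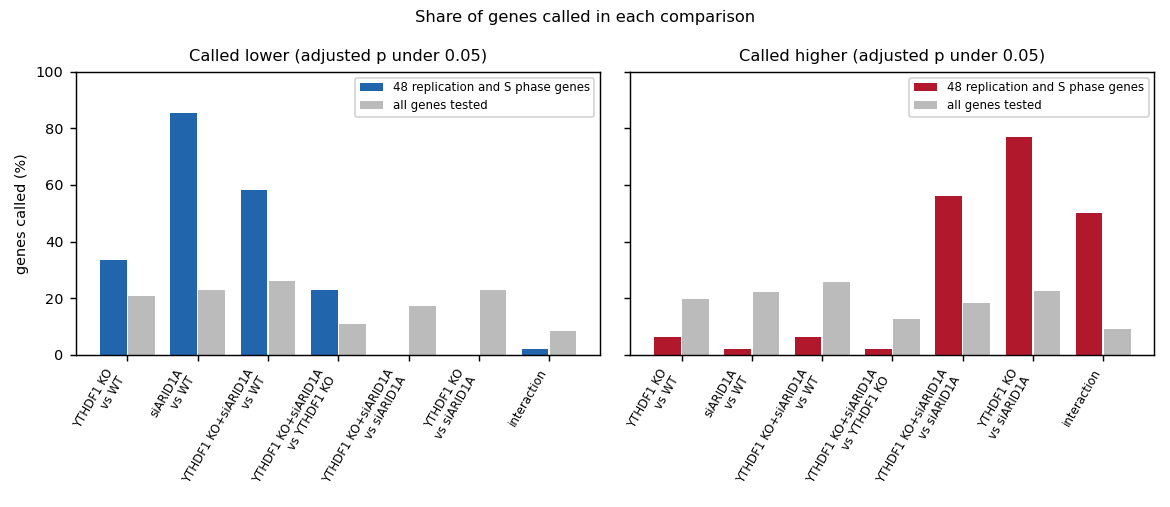
Share of the 48 replication and S phase genes (coloured bars) and of all 18524 genes tested (grey bars) called lower (left) or higher (right) at an adjusted p under 0.05 in each comparison, in percent on the vertical axis. In siARID1A against WT the lower share was 85.4% of the 48 genes and 23% of all genes.

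The 2 counts against WT that involve the knockout depended on scaling. With plain library totals in place of TMM factors, 10 genes were lower and 6 higher in YTHDF1 KO than in WT, and 17 were lower and 7 higher in the combined group than in WT. The same change moved the median of all genes by 0.14 on the log2 scale in the combined group against WT, with medians of -0.10 over the 48 genes and 0.13 over all genes under library totals. Among all called genes, the share that was higher moved to 61.2% with library totals, against 48.5% with TMM, in YTHDF1 KO against WT, and to 63.4%, against 49.7%, in the combined group against WT. It moved to 63.5%, against 53.5%, in the combined group against YTHDF1 KO, and to 62.2%, against 51.3%, in the combined group against siARID1A. In YTHDF1 KO against WT the medians under library totals were -0.04 over the 48 genes and 0.08 over all genes. The shares of all genes called lower or higher under library totals are not given here. The counts under that scaling therefore have no such share beside them.

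The libraries themselves showed the same ranking of groups. Averaged over the 48 genes, log2 CPM differed from the WT mean by -0.24, -0.18 and -0.25 in the combined group, by -0.11, -0.05 and -0.09 in YTHDF1 KO and by -0.39, -0.44 and -0.61 in siARID1A. The WT libraries themselves lay at 0.05, -0.02 and -0.03. No library of any group overlapped a library of another group on this average. The siARID1A group had the widest spread, and its replicate 3 held the lowest value of its group for 40 of the 48 genes.

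**Figure D2:**
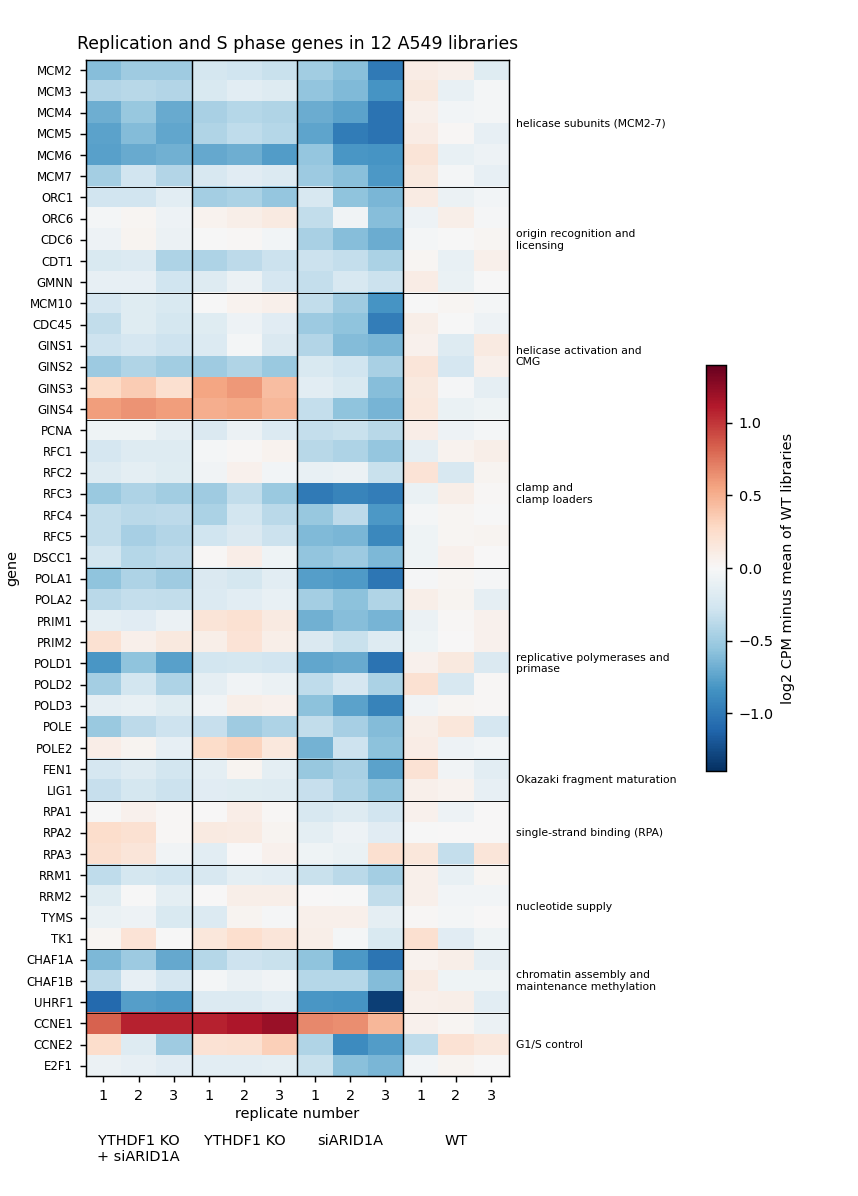
Each row is 1 of the 48 genes and each column 1 of the 12 libraries. Colour gives log2 CPM minus the mean of the 3 WT libraries, with blue for lower and red for higher, and values run from -1.31 to 1.21. The siARID1A columns are blue for most genes, and the row of CCNE1 is red outside WT.

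The promoters of these genes carry short sequences known to bind E2F proteins more often than promoters in general. RefSeq start-site windows (GRCh38.p14, 250 bases before to 50 after the start) were available for 40 of the 48 genes. MCM4, MCM5, GINS4, DSCC1, CCNE2, POLD3, RPA2 and RPA3 were not matched. At least 1 of the E2F words TTTCCCGC, TTTCGCGC, TTTGCCGC and TTTGGCGC, searched on both strands, was found in 19 of the 40 windows (47.5%), in 3.33% of 27305 windows of all genes and in 5.04% of 12350 windows of tested genes. The CCAAT word was found in 57.5% of the 40 windows and in 36.1% of windows of tested genes, and the GC box GGGCGG in 75% and 67.8%. The word TTTGAA, searched as the cell cycle homology region of G2/M genes, was found in 2.5% and 9.98%. The words TTTGGCGC and TTTCGCGC can overlap in part on opposite strands, as in MCM6, and CCAAT words overlap in CHAF1A and POLE.

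Promoters of 7 genes are shown from 220 bases before the start to 30 after it, to set helicase subunits with words at several places (MCM6, MCM3 and MCM7) beside genes of other roles that have a word and 1 gene with none. Capitals mark E2F words on either strand. MCM6 lies at chr2:135876414-135876663 on the reverse strand, MCM3 at chr6:52284713-52284962 on the reverse strand and MCM7 at chr7:100101368-100101617 on the reverse strand, and each has words at more than 1 place. RFC3 lies at chr13:33817929-33818178 on the forward strand and UHRF1 at chr19:4909281-4909530 on the forward strand, with 1 word each. E2F1 lies at chr20:33686356-33686605 on the reverse strand and has a pair of words just upstream of its start. CCNE1 lies at chr19:29811771-29812020 on the forward strand and has none of the words in this window. It was the gene called higher in siARID1A, but 17 of the 21 genes without a word were lower there.
MCM6: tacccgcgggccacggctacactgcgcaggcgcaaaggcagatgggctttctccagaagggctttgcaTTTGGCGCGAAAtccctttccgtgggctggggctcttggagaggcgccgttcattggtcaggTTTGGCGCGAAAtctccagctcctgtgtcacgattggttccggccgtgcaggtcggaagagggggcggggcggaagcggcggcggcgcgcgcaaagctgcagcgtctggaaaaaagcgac
MCM3: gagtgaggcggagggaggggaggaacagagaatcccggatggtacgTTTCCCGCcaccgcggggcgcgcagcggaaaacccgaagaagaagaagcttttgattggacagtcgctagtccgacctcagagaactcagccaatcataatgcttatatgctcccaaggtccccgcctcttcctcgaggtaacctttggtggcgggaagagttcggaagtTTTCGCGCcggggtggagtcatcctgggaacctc
MCM7: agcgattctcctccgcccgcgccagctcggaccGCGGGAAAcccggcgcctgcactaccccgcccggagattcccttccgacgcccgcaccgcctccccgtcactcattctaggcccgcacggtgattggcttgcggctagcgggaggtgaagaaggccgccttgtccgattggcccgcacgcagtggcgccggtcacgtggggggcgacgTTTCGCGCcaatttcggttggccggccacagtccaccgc
RFC3: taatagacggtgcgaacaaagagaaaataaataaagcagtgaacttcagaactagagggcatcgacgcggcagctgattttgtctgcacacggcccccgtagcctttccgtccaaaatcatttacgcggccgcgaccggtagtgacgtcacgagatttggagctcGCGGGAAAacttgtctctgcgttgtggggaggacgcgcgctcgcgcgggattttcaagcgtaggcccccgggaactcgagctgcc
UHRF1: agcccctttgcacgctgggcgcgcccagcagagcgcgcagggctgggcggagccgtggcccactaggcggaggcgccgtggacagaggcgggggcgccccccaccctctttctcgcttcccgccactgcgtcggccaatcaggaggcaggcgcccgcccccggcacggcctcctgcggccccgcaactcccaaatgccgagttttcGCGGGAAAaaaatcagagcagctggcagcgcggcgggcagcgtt
E2F1: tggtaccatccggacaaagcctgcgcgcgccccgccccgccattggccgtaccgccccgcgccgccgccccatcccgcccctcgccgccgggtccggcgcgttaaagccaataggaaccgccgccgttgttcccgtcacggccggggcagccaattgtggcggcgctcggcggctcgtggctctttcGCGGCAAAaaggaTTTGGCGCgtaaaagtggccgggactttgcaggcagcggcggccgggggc
CCNE1: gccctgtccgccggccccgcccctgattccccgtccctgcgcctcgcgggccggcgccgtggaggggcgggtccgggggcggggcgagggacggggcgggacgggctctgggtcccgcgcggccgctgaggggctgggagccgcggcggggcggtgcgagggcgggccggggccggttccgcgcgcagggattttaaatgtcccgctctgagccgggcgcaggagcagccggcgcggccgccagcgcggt

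**Figure D3:**
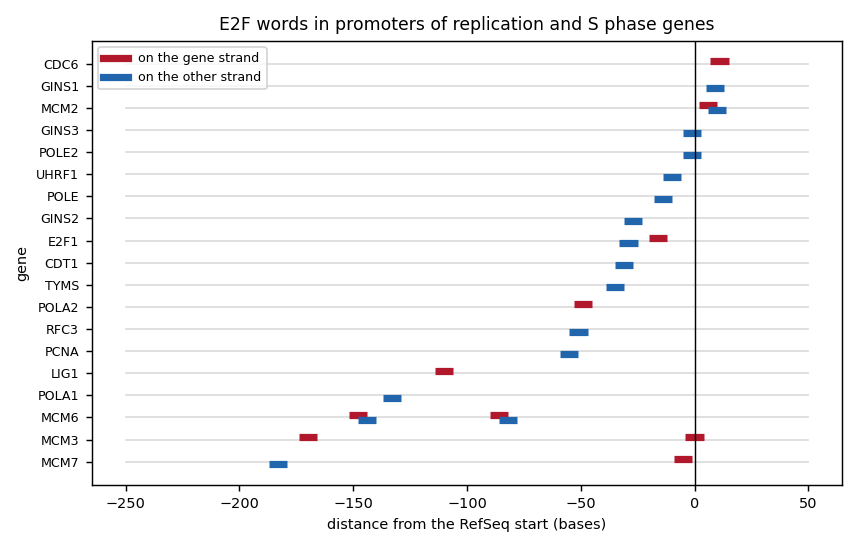
Position of E2F words in the start-site windows of the 19 genes that have one, with distance from the RefSeq start in bases on the horizontal axis and 1 gene per row. Red bars are words on the strand of the gene and blue bars words on the other strand, and most lie within the last 100 bases before the start or just after it.

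Most genes with a word and most genes without one were lower with siARID1A in WT cells. In siARID1A against WT the median log2 fold change was -0.51 over the 19 genes with a word and -0.45 over the 21 without one, and 18 and 17 of them were lower. In YTHDF1 KO against WT the medians were -0.18 and -0.06, with 8 and 6 genes lower. In the combined group against WT they were -0.35 and -0.20, with 13 and 12 genes lower. Of all genes tested, 23% were lower in siARID1A, 20.8% in YTHDF1 KO and 25.9% in the combined group. The 6 of 21 in YTHDF1 KO was not far from that share. For the difference between the siARID1A responses of knockout and WT cells, the interaction defined further on, the medians were 0.43 and 0.28, with 13 of 19 and 7 of 21 genes called higher. Of all genes tested, 8.87% were called higher in the interaction. These values describe the windows and were not tested. A word in a window does not show that a factor bound there, and its absence does not show that none did.

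The counts by class that follow are to be read beside the shares of all genes that were lower than in WT. These were 23% in siARID1A, 20.8% in YTHDF1 KO and 25.9% in the combined group. Among the origin and licensing genes, all 5 were lower in siARID1A than in WT, and 2 of the 5, ORC1 and CDT1, were lower in YTHDF1 KO. ORC1, the largest subunit of the origin recognition complex (ENSG00000085840, chromosome 1, 52372829 to 52404459, reverse strand, GRCh38), had 35.99, 36.03 and 39.3 CPM in the combined group, 31.1, 31.8 and 29.7 in YTHDF1 KO, 37.1, 29.4 and 27.7 in siARID1A and 47.03, 41.1 and 42.2 in WT. Its WT libraries were above all others, and its YTHDF1 KO libraries lay below those of the combined group. The log2 fold change against WT was -0.49 (SE 0.0655, adjusted p = 0.000142) in YTHDF1 KO, -0.47 in siARID1A (adjusted p = 0.000244) and -0.23 in the combined group (adjusted p = 0.0447). The last of these calls was lost in 11 alternatives (adjusted p from 0.0507 to 0.444), among them 7 that each left out 1 library: any YTHDF1 KO library, combined replicate 1 or 2, or WT replicate 1 or 3.

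CDC6, which loads the helicase with CDT1, had 124, 134 and 124 CPM in the combined group, 131, 133 and 128 in YTHDF1 KO, 95.8, 86.8 and 81.1 in siARID1A and 128, 130.4 and 134 in WT. Only the siARID1A libraries stood apart, and they lay below all 9 others. Its log2 fold change was -0.57 (SE 0.0717, adjusted p = 2.27e-07) in siARID1A against WT, -0.01 in YTHDF1 KO against WT (adjusted p = 0.952) and -0.04 in the combined group against WT (adjusted p = 0.665). CDT1 fell by 0.36 in siARID1A (adjusted p = 0.000638) and by 0.37 in YTHDF1 KO (adjusted p = 0.000549). ORC6, another origin recognition subunit, had a log2 fold change of -0.32 in siARID1A (adjusted p = 0.0124), and GMNN, the inhibitor of CDT1, of -0.29 (adjusted p = 0.00663).

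The 6 subunits of the MCM2-7 helicase moved together. All 6 were lower in siARID1A and in the combined group than in WT, and 5 of 6 were lower in YTHDF1 KO, where MCM7 had -0.19 (adjusted p = 0.0612). Their median log2 fold changes against WT were -0.59 in the combined group, -0.34 in YTHDF1 KO and -0.70 in siARID1A. MCM5 (ENSG00000100297, chromosome 22, 35400063 to 35425430, forward strand) had 167, 185 and 169 CPM in the combined group, 209, 219.6 and 212 in YTHDF1 KO, 168, 142 and 137 in siARID1A and 301, 283 and 258 in WT. Every WT library lay above every other library and YTHDF1 KO came next, while the combined and siARID1A libraries, the lowest, overlapped. MCM5 had log2 fold changes against WT of -0.69 (SE 0.0782, adjusted p = 4.62e-08) in the combined group, -0.40 (SE 0.0674, adjusted p = 0.00018) in YTHDF1 KO and -0.91 (SE 0.1098, adjusted p = 9.45e-10) in siARID1A.

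MCM4 had 219, 242 and 216 CPM in the combined group, 257, 266 and 263 in YTHDF1 KO, 216, 209 and 171 in siARID1A and 369, 342 and 344 in WT, a similar ranking, with -0.82 in siARID1A against WT (adjusted p = 6.26e-09). MCM7, the helicase subunit with the highest level per length, had 324, 374 and 339 CPM in the combined group, 388, 405 and 394 in YTHDF1 KO, 318, 301 and 259 in siARID1A and 496, 444 and 417 in WT. The 4 groups did not overlap, with siARID1A lowest, then the combined group, YTHDF1 KO and WT, and the log2 fold change of siARID1A against WT was -0.63 (adjusted p = 7.72e-07). MCM2 and MCM3 had -0.68 and -0.66 in siARID1A against WT (adjusted p = 3.77e-06 and 9.12e-08), and -0.29 and -0.19 in YTHDF1 KO against WT (adjusted p = 0.0185 and 0.0478).

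For MCM6 the libraries of all 3 perturbed groups lay at overlapping levels. MCM6 (ENSG00000076003, chromosome 2, 135839626 to 135876426, reverse strand) had 107, 111 and 113 CPM in the combined group, 110.3, 113 and 106 in YTHDF1 KO, 124, 103 and 102 in siARID1A and 204, 168 and 173 in WT. The WT libraries stood apart above the other 9. Its log2 fold change against WT was -0.72 (SE 0.0917, adjusted p = 5.22e-08) in the combined group, -0.73 (SE 0.0926, adjusted p = 6.13e-08) in YTHDF1 KO and -0.73 (SE 0.128, adjusted p = 7.62e-08) in siARID1A. MCM6 lies on chromosome 2, whose genes as a whole had medians of -0.42 in the combined group, -0.41 in YTHDF1 KO and 0.01 in siARID1A, each against WT. Relative to the chromosome's other genes MCM6 lay at -0.30, -0.32 and -0.73 in the same comparisons. The part of the chromosome-wide shift in the MCM6 values was not tested.

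**Figure D4:**
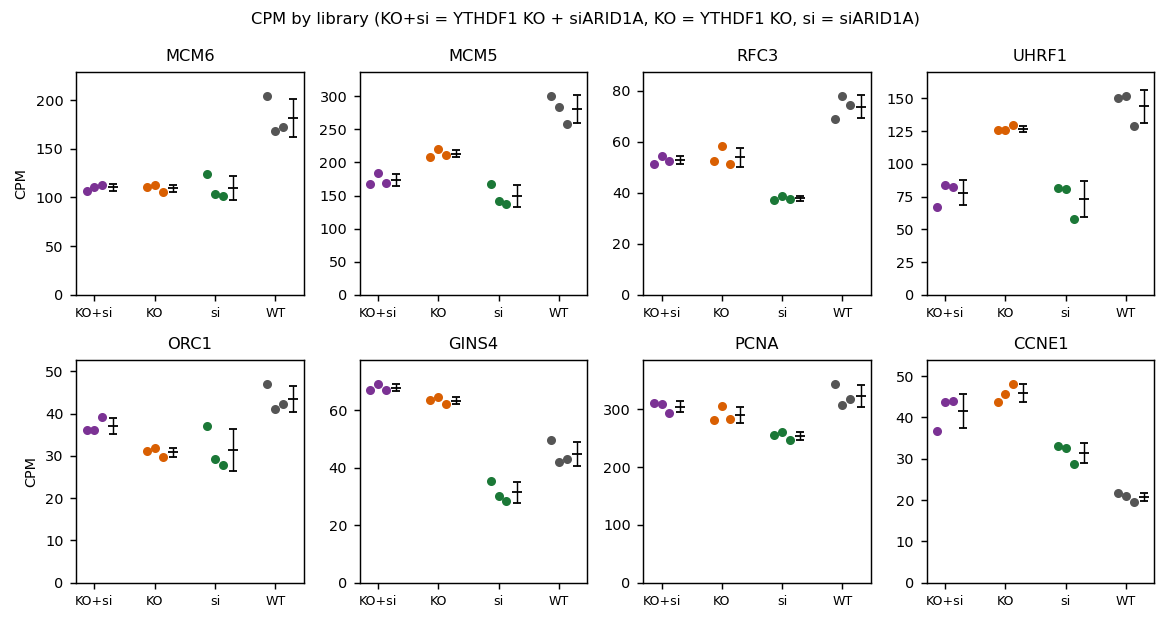
CPM in each library for 8 of the genes, 1 panel per gene, with groups from left to right as the combined group (KO+si), YTHDF1 KO (KO), siARID1A (si) and WT. Points are libraries and black marks the mean with its SD over 3 libraries. MCM6 and ORC1 are highest in WT, GINS4 is highest in the 2 knockout groups, and CCNE1 is lowest in WT.

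Among the helicase activation genes, all 6 were lower in siARID1A than in WT, whereas in YTHDF1 KO GINS2 was lower and GINS3 and GINS4 were higher. The lower share in YTHDF1 KO (16.7%) was near the 20.8% of all genes, and the higher share was 33.3% beside 19.6%. The 4 GINS proteins form 1 complex in the active helicase. GINS4 (ENSG00000147536, chromosome 8, 41529206 to 41545046, forward strand) had 66.98, 69.1 and 67.1 CPM in the combined group, 63.5, 64.4 and 61.9 in YTHDF1 KO, 35.4, 30.2 and 28.5 in siARID1A and 49.7, 41.9 and 42.9 in WT. Both knockout groups lay above WT and siARID1A lay below it, with no overlap between these levels. Its log2 fold changes against WT were 0.60 (SE 0.0776, adjusted p = 1.23e-06) in the combined group, 0.50 (SE 0.07796, adjusted p = 2.3e-05) in YTHDF1 KO and -0.51 (SE 0.121, adjusted p = 1.88e-05) in siARID1A.

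GINS3 had 18.4, 19.7 and 17.9 CPM in the combined group, 22.4, 23.4 and 20.7 in YTHDF1 KO, 13.8, 13.2 and 10.1 in siARID1A and 16.8, 15.2 and 14.04 in WT, with siARID1A lowest and YTHDF1 KO highest and no overlap between groups. It rose by 0.53 in YTHDF1 KO against WT (adjusted p = 0.00039). Its call in siARID1A (-0.32, adjusted p = 0.0261) was lost without siARID1A replicate 3 (adjusted p = 0.2) or WT replicate 1 (adjusted p = 0.115). That call was also lost with library totals (adjusted p = 0.0717) and with only the groups compared (adjusted p = 0.0811). Its call in the combined group (0.28, adjusted p = 0.038) was lost without any 1 of the combined libraries or without WT replicate 2 or 3 (adjusted p from 0.0502 to 0.135). The same call was lost without the genes of chromosomes 2 and 9 (adjusted p = 0.0801). GINS2 had 35.01, 37.04 and 35.5 CPM in the combined group, 35.1, 37.1 and 34.6 in YTHDF1 KO, 42.9, 40.8 and 36.3 in siARID1A and 55.9, 42.1 and 52.1 in WT, with both knockout groups below WT, and with siARID1A libraries overlapping those of all 3 other groups. Its value in siARID1A was -0.32 (adjusted p = 0.00574), a call lost without WT replicate 1 (adjusted p = 0.0501). It fell by 0.49 in YTHDF1 KO against WT (adjusted p = 0.000113).

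GINS1 had 81.7, 84.4 and 81.1 CPM in the combined group, 87.1, 97.5 and 86.8 in YTHDF1 KO, 74.6, 65.5 and 63.7 in siARID1A and 104, 87.7 and 108 in WT, and its siARID1A libraries lay below all others. It had a log2 fold change of -0.55 in siARID1A against WT (adjusted p = 4.3e-06) and of -0.28 in the combined group (adjusted p = 0.00561, or 0.134 with library totals). CDC45, which joins the GINS complex on the MCM ring, had -0.67 in siARID1A (adjusted p = 1.85e-06). MCM10, which is needed for helicase activation, had -0.54 in siARID1A (adjusted p = 1.36e-05) and 0.04 in YTHDF1 KO (adjusted p = 0.763).

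All 9 genes of the replicative polymerases and primase were lower in siARID1A than in WT. Of these 9 genes, 5 were lower in the combined group and 3, POLA1, POLD1 and POLE, were lower in YTHDF1 KO. The shares of all genes there were 25.9% and 20.8%. POLA1, the catalytic subunit of polymerase alpha (ENSG00000101868, chromosome X, 24693919 to 24996986, forward strand), had 50.01, 54.7 and 52.4 CPM in the combined group, 63.99, 62.2 and 66.6 in YTHDF1 KO, 43.3, 42.5 and 36.5 in siARID1A and 72.97, 75.4 and 73.03 in WT. The 4 groups did not overlap, with siARID1A lowest and WT highest. Its log2 fold change was -0.86 (SE 0.0798, adjusted p = 1.39e-09) in siARID1A and -0.49 (SE 0.0401, adjusted p = 3.9e-06) in the combined group, each against WT. The value in YTHDF1 KO was -0.20 (adjusted p = 0.0319), and this call was lost without YTHDF1 KO replicate 1 or 2 or WT replicate 2 (adjusted p from 0.0866 to 0.119). The call was also lost with library totals (adjusted p = 0.285) and with no filter on low counts (adjusted p = 0.115).

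POLD1, the catalytic subunit of polymerase delta, had 76.7, 91.3 and 79.4 CPM in the combined group, 113, 113 and 112 in YTHDF1 KO, 81.6, 82.7 and 65.5 in siARID1A and 141, 148 and 117 in WT. Its combined and siARID1A libraries overlapped and lay below all others. It had -0.71 (SE 0.127, adjusted p = 5.64e-07) in the combined group and -0.82 (SE 0.149, adjusted p = 1.19e-07) in siARID1A, each against WT. Its value in YTHDF1 KO was -0.27 (adjusted p = 0.0214), and this call was lost without any 1 of the YTHDF1 KO libraries or without WT replicate 1 or 2 (adjusted p from 0.0558 to 0.108). The call was also lost with library totals (adjusted p = 0.137).

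POLD2, another polymerase delta subunit and the polymerase gene with the highest level per length, had 109, 127 and 113 CPM in the combined group, 139, 148 and 143 in YTHDF1 KO, 119, 129.6 and 112 in siARID1A and 176, 130.4 and 154 in WT. WT replicate 2 was at the level of the highest siARID1A library, and the log2 fold change of siARID1A against WT was -0.35 (adjusted p = 0.00203). POLD3, an accessory delta subunit, had 39.1, 39.7 and 38.01 CPM in the combined group, 41.3, 45.2 and 44.6 in YTHDF1 KO, 28.7, 25.4 and 22.4 in siARID1A and 41.5, 43.6 and 43.4 in WT. The siARID1A libraries were lowest and the combined group came next, both apart from YTHDF1 KO and WT, which overlapped. POLD3 had -0.75 (SE 0.105, adjusted p = 1.1e-07) in siARID1A against WT. The catalytic epsilon subunit POLE had -0.40, -0.42 and -0.48 against WT in the combined group, YTHDF1 KO and siARID1A (adjusted p = 0.000791, 0.000611 and 0.000163). The primase subunits PRIM1 and PRIM2 had -0.64 and -0.23 in siARID1A (adjusted p = 1.35e-05 and 0.0441) and did not pass against WT in YTHDF1 KO (0.17 and 0.12).

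Of the 7 clamp and clamp loader genes, 6 were lower in siARID1A, 5 in the combined group and 3 in YTHDF1 KO, each against WT. The shares of all genes in the same order were 23%, 25.9% and 20.8%. RFC3, a subunit of the replication factor C loader (ENSG00000133119, chromosome 13, 33818049 to 33966558, forward strand), had 51.2, 54.4 and 52.4 CPM in the combined group, 52.3, 58.2 and 51.3 in YTHDF1 KO, 36.96, 38.7 and 37.6 in siARID1A and 68.9, 77.9 and 74.4 in WT. Its siARID1A libraries lay below all others, its WT libraries above all others, and the 2 knockout groups overlapped between them. Its log2 fold changes against WT were -0.48 (SE 0.0579, adjusted p = 4.43e-06) in the combined group, -0.45 (SE 0.0767, adjusted p = 1.73e-05) in YTHDF1 KO and -0.97 (SE 0.0556, adjusted p = 1.55e-10) in siARID1A, where it stood at 51.2% of WT.

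PCNA, the sliding clamp (ENSG00000132646, chromosome 20, 5114953 to 5126626, reverse strand), had 310.2, 309 and 294 CPM in the combined group, 281, 305 and 284 in YTHDF1 KO, 256, 260.2 and 247 in siARID1A and 344, 308 and 318 in WT. It had the highest level per length of the 48 genes, 219.7 ± 12.8 RPKM (CPM divided by the exon length in kilobases) in WT. PCNA had log2 fold changes against WT of -0.09 in the combined group (adjusted p = 0.298), -0.16 in YTHDF1 KO (adjusted p = 0.0658) and -0.35 (SE 0.0531, adjusted p = 0.000156) in siARID1A. DSCC1, a subunit of an alternative clamp loader, had 27.3, 24.7 and 25.3 CPM in the combined group, 32.97, 34.8 and 31.3 in YTHDF1 KO, 22.2, 22.9 and 21.1 in siARID1A and 31.1, 33.9 and 32.8 in WT. It had 0.02 in YTHDF1 KO against WT (adjusted p = 0.877) and fell by 0.56 in siARID1A (adjusted p = 5.41e-06) and by 0.34 in the combined group (adjusted p = 0.0013, or 0.0608 with library totals). RFC4 and RFC5 had -0.55 and -0.71 in siARID1A (adjusted p = 1.76e-05 and 1.01e-07), and RFC2 did not pass in any comparison with WT.

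Both genes of lagging-strand joining and 1 of 3 of single-strand binding were lower in siARID1A than in WT. The latter share (33.3%) was not far from the 23% of all genes. FEN1, the flap endonuclease, had 141, 146 and 139 CPM in the combined group, 150.4, 170.3 and 150.4 in YTHDF1 KO, 114, 121 and 98.5 in siARID1A and 191, 159 and 149 in WT. Its siARID1A libraries lay below all others, with -0.58 (SE 0.138, adjusted p = 5.64e-06) against WT. LIG1, the ligase, had -0.44 in siARID1A (adjusted p = 1.87e-05). Of the 3 subunits of replication protein A, which coats single-stranded DNA, only RPA1 was lower in siARID1A. RPA1 had 156, 163 and 158 CPM in the combined group, 156, 166 and 158 in YTHDF1 KO, 133, 137 and 129.9 in siARID1A and 163, 149 and 157 in WT, and its siARID1A libraries lay below the other 9, at -0.23 (SE 0.04405, adjusted p = 0.00525) against WT. RPA2 and RPA3 had -0.12 and 0.02 (adjusted p = 0.229 and 0.921).

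Of the 4 nucleotide supply genes, only RRM1, the large subunit of ribonucleotide reductase, was lower against WT, with -0.39 in siARID1A (adjusted p = 5.2e-05), -0.29 in the combined group (adjusted p = 0.000862) and -0.17 in YTHDF1 KO (adjusted p = 0.0496). This share of 25% was near those of all genes, 23%, 25.9% and 20.8% in the same order. TK1, the S phase thymidine kinase, had 171, 192 and 168 CPM in the combined group, 188, 197 and 189 in YTHDF1 KO, 178, 165 and 144 in siARID1A and 196, 150.5 and 160.5 in WT. The YTHDF1 KO libraries lay above those of siARID1A and all other pairs of groups overlapped, and its log2 fold change in siARID1A against WT was -0.06 (adjusted p = 0.641). The small reductase subunit RRM2 had -0.10 (adjusted p = 0.305), and thymidylate synthase (TYMS) had 0.01 (adjusted p = 0.949). RRM2 lies on chromosome 2, and relative to the other genes of that chromosome it lay at 0.46 in YTHDF1 KO against WT, where its own log2 fold change was 0.06.

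All 3 chromatin genes were lower in siARID1A and in the combined group than in WT. UHRF1, which recruits the maintenance DNA methyltransferase to newly copied DNA (ENSG00000276043, chromosome 19, 4903080 to 4962154, forward strand), had 67.3, 84.2 and 82.7 CPM in the combined group, 126, 126 and 129.5 in YTHDF1 KO, 81.3, 80.8 and 57.7 in siARID1A and 150.5, 152 and 129 in WT. The combined and siARID1A libraries overlapped far below those of YTHDF1 KO and WT. Its log2 fold changes against WT were -0.88 (SE 0.129, adjusted p = 2.38e-06) in the combined group, -0.18 in YTHDF1 KO (adjusted p = 0.209) and -0.97 (SE 0.1799, adjusted p = 1.1e-06) in siARID1A. CHAF1A and CHAF1B, subunits of the histone chaperone that assembles nucleosomes at forks, had -0.79 and -0.47 in siARID1A (adjusted p = 1.83e-07 and 8.63e-05).

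The regulators of S phase entry did not move as a group. CCNE1, which encodes cyclin E1 (ENSG00000105173, chromosome 19, 29811898 to 29824308, forward strand), had 36.8, 43.8 and 43.9 CPM in the combined group, 43.8, 45.7 and 48.2 in YTHDF1 KO, 33.2, 32.6 and 28.6 in siARID1A and 21.6, 21.1 and 19.6 in WT. Every library of the other 3 groups lay above every WT library. CCNE1 rose by 1.00 (SE 0.0952, adjusted p = 8.74e-10) in the combined group, 1.14 (SE 0.0586, adjusted p = 1.14e-10) in YTHDF1 KO and 0.60 (SE 0.0791, adjusted p = 6.11e-06) in siARID1A, each on the log2 scale against WT. CCNE2, the cyclin E2 gene, had 4.49, 3.33 and 2.67 CPM in the combined group, 4.37, 4.403 and 4.77 in YTHDF1 KO, 2.81, 2.04 and 2.19 in siARID1A and 2.95, 4.38 and 4.21 in WT, the lowest level per length of the 48 genes, and fell by 0.71 in siARID1A (adjusted p = 0.00844). E2F1, the transcription factor whose targets include many of these genes, had 77.1, 75.02 and 72.99 CPM in the combined group, 73.5, 73.5 and 73.9 in YTHDF1 KO, 65.5, 54.02 and 52.1 in siARID1A and 79.3, 83.7 and 80.95 in WT. Its siARID1A libraries lay below all others and its WT libraries above all others, with -0.51 (SE 0.105, adjusted p = 6.04e-06) in siARID1A against WT, and it did not pass in YTHDF1 KO (-0.14, adjusted p = 0.134).

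With ARID1A silenced in knockout cells, 12 of these genes passed the test. In the combined group against YTHDF1 KO, 11 of the 48 genes were lower and 1, ORC1, was higher, where 10.9% of all genes were lower and 12.5% were higher (23.4% in either direction, beside 25% of the 48 genes). The combined libraries lay below those of YTHDF1 KO without overlap for 28 of the 48 genes and for 21.2% of all genes, and above for 2 and for 22.5%. The 11 were CHAF1A, DSCC1, MCM3, MCM5, MCM10, POLA1, POLD1, POLD2, PRIM1, RFC1 and UHRF1. Among these, UHRF1 had the lowest value, -0.70 (SE 0.104, adjusted p = 0.000141), followed by POLD1 at -0.45 (adjusted p = 0.000776) and DSCC1 at -0.36 (adjusted p = 0.00224). The median was -0.15 over the 48 genes and 0.01 over all genes. The count of lower genes ran from 5 to 14 as single libraries were left out, with 7, 5 and 6 without YTHDF1 KO replicates 1, 2 and 3 and 5 without combined replicate 1 or 3. It was 6 with library totals and 21 when only the 2 groups entered the fit. The ORC1 call (0.27, adjusted p = 0.0436) was lost without any 1 of these 6 libraries (adjusted p from 0.0682 to 0.179).

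The difference between the 2 responses was tested directly. The interaction is the log2 change with siARID1A in knockout cells (combined group minus YTHDF1 KO) minus the change in WT cells (siARID1A minus WT). It was positive for 44 of the 48 genes and passed as higher for 24 and as lower for 1, CCNE1, where 8.87% of all genes passed as higher and 8.22% as lower. The median was 0.34 over the 48 genes and 0.02 over all genes. Without WT replicate 2 the counts were 23 and 1, and without siARID1A replicate 3 they were 21 and 1. All 6 subunits of the MCM2-7 helicase and both genes of lagging-strand joining were higher, and nucleotide supply and replication protein A had 0 of 4 and 0 of 3. By the values given above, ARID1A RNA was higher in every combined library than in every siARID1A library. The part of this difference in the interaction was not tested.

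The single largest interaction was that of RFC3, 0.93 (SE 0.0832, adjusted p = 5.18e-07). It is built from a change of -0.03 in knockout cells and -0.97 in WT cells. MCM6 had 0.74 (SE 0.133, adjusted p = 5.09e-05), from 0.01 and -0.73, and ORC1 had 0.73 (SE 0.1503, adjusted p = 0.000328), from 0.27 and -0.47. CCNE1 had -0.74 (SE 0.123, adjusted p = 0.000128), from -0.14 and 0.60. UHRF1, the gene with the lowest value with siARID1A in WT cells, did not pass the interaction test. It had 0.27 (adjusted p = 0.266), from -0.70 in knockout cells and -0.97 in WT cells. POLD1 had 0.37 (adjusted p = 0.0481), and this call was lost in 11 alternatives (adjusted p from 0.0624 to 0.157), among them those without YTHDF1 KO replicate 1, 2 or 3, siARID1A replicate 3, combined replicate 2 or 3, or WT replicate 1 or 2.

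**Figure D5:**
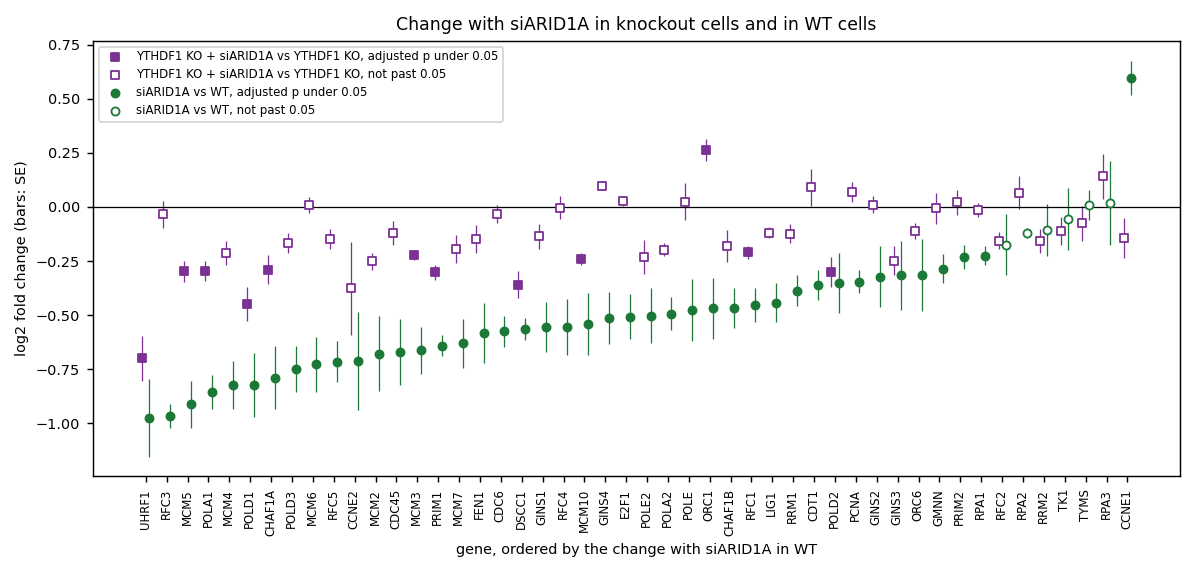
Log2 fold change with siARID1A (vertical axis, bars are SE from 3 libraries per group) for each of the 48 genes, ordered by the change in WT cells. Purple squares are the combined group against YTHDF1 KO and green circles siARID1A against WT, filled where the adjusted p is under 0.05. Squares lie above circles for 44 of the 48 genes.

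The 2 groups with silenced ARID1A also differed from each other, as they did in the level of ARID1A RNA left, which was higher in the combined group. In the combined group against siARID1A, 27 of the 48 genes were higher and 0 were lower in edgeR's test, where 18.2% of all genes were higher and 17.2% were lower. The combined libraries lay above those of siARID1A without overlap for 25 of the 48 genes and for 25.3% of all genes, and below for 0 and for 23%. The number lower was also 0 at an unadjusted p under 0.05 and with DESeq2. The median was 0.24 over the 48 genes and 0.01 over all genes. GINS4 had the largest value, 1.11 (SE 0.0953, adjusted p = 9.07e-11), followed by POLD3 at 0.61 (adjusted p = 2.94e-06) and GINS3 at 0.60 (adjusted p = 0.000159). Without siARID1A replicate 3 the count was 20. The calls of CCNE2 (0.57, adjusted p = 0.0425) and DSCC1 (0.22, adjusted p = 0.0398) were lost in 11 and 10 alternatives, with adjusted p up to 0.262 and 0.152.

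In YTHDF1 KO against siARID1A, 37 of the 48 genes were higher and 0 were lower in edgeR's test, where 22.4% of all genes were higher and 22.8% were lower. The YTHDF1 KO libraries lay above those of siARID1A without overlap for 38 of the 48 genes and for 28.3% of all genes, and below for 0 and for 28.1%. Again 0 were lower at an unadjusted p under 0.05 and with DESeq2, and without siARID1A replicate 3 the count of higher genes was 32. The median was 0.41 over the 48 genes and 0.01 over all genes. GINS4 had 1.01 (SE 0.0956, adjusted p = 3.49e-10), CCNE2 had 0.94 (adjusted p = 0.000706) and GINS3 had 0.84 (adjusted p = 1.05e-06). TK1 had 0.24 (adjusted p = 0.0334), a call lost without any 1 of the YTHDF1 KO libraries or without siARID1A replicate 2 or 3 (adjusted p up to 0.189). The call was also lost without the genes of chromosomes 2 and 9 (adjusted p = 0.0595).

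Other genes of the same pathways were counted from lists of related genes, to be read beside the shares of all genes tested, 23% lower and 22.1% higher in siARID1A against WT, and 20.8% lower and 19.6% higher in YTHDF1 KO against WT. In siARID1A against WT, 11 of 16 further licensing and origin firing genes were lower and 1 was higher. RECQL4, a helicase needed for origin firing, had -0.95 (SE 0.153, adjusted p = 1.08e-08). TICRR and TOPBP1, which act in origin firing, had -0.64 and -0.55 (adjusted p = 5.16e-06 and 1.11e-06), and MCMBP, an MCM-binding protein, had -0.48 (adjusted p = 1.66e-06). Of 18 further fork genes 11 were lower and 0 higher, among them CHTF18 of the alternative clamp loader at -0.92 (adjusted p = 6.88e-08) and CLSPN, an adaptor of the replication checkpoint, at -0.63 (adjusted p = 4.48e-07). The polymerase epsilon subunit POLE3 had -0.94 (adjusted p = 1.08e-10) and lies on chromosome 9, whose genes had a median of -0.41 in that comparison. In YTHDF1 KO against WT, 4 of the 16 licensing genes were lower and 1 higher, and 4 of the 18 fork genes were lower and 2 higher, with the lower shares (25% and 22.2%) near the 20.8% of all genes and the higher shares (6.25% and 11.1%) under the 19.6%.

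Of 15 further nucleotide genes, 11 were lower and 1, RRM2B, higher in siARID1A than in WT. TK2, the mitochondrial thymidine kinase, had 10.2, 13.6 and 11.3 CPM in the combined group, 24.2, 25.4 and 24.3 in YTHDF1 KO, 6.35, 5.11 and 5.79 in siARID1A and 14.6, 16.3 and 16.5 in WT. It was lowest in siARID1A and highest in YTHDF1 KO without overlap, at -1.46 (SE 0.106, adjusted p = 6.42e-10) and 0.64 (SE 0.0609, adjusted p = 3.82e-05) against WT. DUT, which removes dUTP, had -0.63 in siARID1A (adjusted p = 2.84e-07), and RRM2B, the p53-induced reductase subunit, had 0.41 (adjusted p = 7.06e-05). CAD and DTYMK, enzymes of pyrimidine synthesis on chromosome 2, had -0.76 and -0.82 in YTHDF1 KO (adjusted p = 1.59e-07 and 1.59e-06). The genes of chromosome 2 had a median of -0.41 in that comparison. Both genes were also lower in siARID1A than in WT without overlap. CAD had 300, 304 and 260 CPM there against 379, 404 and 318 in WT, and DTYMK had 70.3, 74.4 and 59.3 against 120, 88.1 and 99.5.

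Of 11 further chromatin replication genes, 7 were lower and 0 higher in siARID1A than in WT. SLBP, which binds the stem-loop of replication-dependent histone messages, had 29.3, 30.01 and 30.2 CPM in the combined group, 64.2, 69.5 and 65.8 in YTHDF1 KO, 20.8, 20.6 and 19.4 in siARID1A and 59.4, 65.1 and 64.9 in WT. Both groups with silenced ARID1A lay far below the other 2, with -1.08 (SE 0.0453, adjusted p = 6.09e-12) in the combined group and -1.64 (SE 0.0526, adjusted p = 1.55e-14) in siARID1A, against 0.08 in YTHDF1 KO (adjusted p = 0.432), each relative to WT. The remodeller HELLS had -0.85 in siARID1A (adjusted p = 7.1e-10), and the maintenance methyltransferase DNMT1 had -0.70 (adjusted p = 6.71e-08).

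Of 18 further G1/S regulators, 10 were lower and 1 higher in siARID1A than in WT, and 8 were lower and 3 higher in YTHDF1 KO. All genes gave 23% lower and 22.1% higher in siARID1A, and 20.8% lower and 19.6% higher in YTHDF1 KO, so the higher share of the list in YTHDF1 KO (16.7%) was near that of all genes. CCNA2, the S phase cyclin A2 gene, had -0.55 in the combined group, -0.41 in YTHDF1 KO and -0.53 in siARID1A against WT (adjusted p = 2.77e-06, 0.000196 and 7.53e-06). CCND3, the cyclin D3 gene, had 353, 319.6 and 316 CPM in the combined group, 114, 113 and 111 in YTHDF1 KO, 647, 616 and 692 in siARID1A and 495, 439 and 446 in WT. It was lowest in YTHDF1 KO, at -2.03 (SE 0.0557, adjusted p = 6.13e-17) against WT, and highest in siARID1A, at 0.50 (SE 0.07296, adjusted p = 3.05e-06). RBL1, a retinoblastoma relative that represses E2F targets and is itself an S phase gene, had -1.10 in siARID1A (adjusted p = 1.34e-09), and CDK6 rose by 0.78 in YTHDF1 KO (adjusted p = 6.16e-09).

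Of 10 listed inhibitors of the G1/S step, 7 had enough counts, and 3 were higher and 2 lower in siARID1A than in WT, where 22.1% of all genes were higher and 23% lower, so 2 of 7 lower is near the share of all genes. CDKN1A, the p21 inhibitor of cyclin-dependent kinases (ENSG00000124762, chromosome 6, 36676460 to 36687339, forward strand), had 233, 221 and 225 CPM in the combined group, 175, 176 and 176 in YTHDF1 KO, 409, 482 and 487 in siARID1A and 159, 156 and 159.6 in WT. Each group was separate from the others, with siARID1A highest, then the combined group, YTHDF1 KO and WT. Its log2 fold changes against WT were 0.52 (SE 0.0249, adjusted p = 8.86e-07) in the combined group, 0.15 in YTHDF1 KO (adjusted p = 0.0825) and 1.54 (SE 0.0818, adjusted p = 1.55e-14) in siARID1A. Its interaction was -1.17 (SE 0.0849, adjusted p = 6.8e-09). The antiproliferative gene BTG2 had 2.32 in siARID1A (adjusted p = 5.93e-13), and its interaction was -1.48 (adjusted p = 1.15e-06). CDKN2C, an inhibitor of CDK4 and CDK6, was lower in siARID1A (-0.63, adjusted p = 1.1e-05) and in YTHDF1 KO (-0.90, adjusted p = 5.3e-08).

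Per kilobase of exon, the 48 genes spanned a wide range in WT. PCNA was followed by MCM7 at 103 ± 9.12 RPKM, TK1 at 90.8 ± 12.8, FEN1 at 67.1 ± 8.82, MCM3 at 56.3 ± 4.94 and MCM4 at 50.4 ± 2.13 (mean ± SD, n = 3). MCM7 and TK1 differed by less than the SD of TK1, and each other pair of neighbours named here differed by more than either SD. At the other end were PRIM2 at 4.11 ± 0.169, GINS3 at 3.01 ± 0.276, POLA2 at 2.06 ± 0.157 and CCNE2 at 0.875 ± 0.178 RPKM. The genes outside the set whose log2 CPM most resembled the mean of the 48 over the 12 libraries were CALR (Pearson r = 0.978), MEPCE (0.971), ZWINT (0.971), ARHGAP11A (0.968), MCMBP (0.968), ALDH3A1 (0.967), HSPA14 (0.965) and PDIA3 (0.965). The 12 points share 4 groups, and these values describe likeness only.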

How the data were processed

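Per the labels' protocols, total RNA of A549 cells was made into libraries with a TruSeq Stranded kit. The submitters' processing notes name edgeR 3.32.1, featureCounts 2.0.1, the aligner STAR 2.7.0d and, for trimming, Trim Galore 0.6.6, with the build GRCh38, and the annotation release and strand setting are not given in the sources used here. The values are raw read counts per gene, deposited by the authors as 1 table of 60617 genes and 12 libraries, with totals of 30220717 to 45042635 counts.

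From these counts, genes with low counts were removed with edgeR's filterByExpr, which left 18524 genes. TMM factors ran from 0.912 to 1.055. A quasi-likelihood model with robust dispersion (edgeR 4.0.16, limma 3.58.1, R 4.3.3) was fitted to all 4 groups of 3 libraries without a replicate term, and p-values were adjusted by the Benjamini-Hochberg method over all genes tested, with a threshold of 0.05. Log2 CPM used a prior count of 2, and the SE of a log2 fold change comes from the SDs of the groups' log2 CPM. RPKM used the exon length of each gene in GENCODE 29. Gene positions are from that annotation, and promoters are from RefSeq (GRCh38.p14). The code of the fit was also run on simulated counts with known changes in a small part of the genes. Those counts had an even spread and no library apart from the others, so the run does not cover a library such as WT replicate 2.

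The genes, the related lists and the tests were chosen with earlier results of these data known. Values in every library are given for the 3 genes with the most positive and the 3 with the most negative log2 fold change among those called in each of 7 contrasts, for up to 8 genes with the smallest p in the interaction, and for the gene with the highest mean RPKM in each class. From each related list, up to 4 genes with the smallest p in siARID1A or YTHDF1 KO against WT could be named, plus CDKN1A, RRM2B, SLBP and CCNA2. The 8 genes most like the set were chosen by Pearson correlation. Libraries with the same replicate number did not deviate together, with correlations from -0.042 to 0.033, so the numbers were not used as pairs. Alternatives were other size factors, library totals, DESeq2 1.42.0, no filter, a replicate block, a fit without the genes of chromosomes 2 and 9, a fit of the compared groups only, and each library left out in turn.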

Additional observations from a re-analysis of the deposited data

Results flagged for a closer look

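For 25 of the 48 genes the change with siARID1A differed between knockout cells and WT cells, by the interaction term of edgeR's quasi-likelihood test. Of all genes tested, 17.1% passed in either direction, 8.87% as higher and 8.22% as lower. The value given is the log2 change of the combined group against YTHDF1 KO minus that of siARID1A against WT. More ARID1A RNA was left in the combined group than in siARID1A, and the part of this in the values was not tested. Among helicase subunits the interaction was 0.74 for MCM6, 0.62 for MCM5, 0.61 for MCM4, 0.44 for MCM3, 0.44 for MCM7 and 0.43 for MCM2. Among licensing genes it was 0.73 for ORC1, 0.54 for CDC6 and 0.45 for CDT1. Among helicase activation genes it was 0.61 for GINS4, 0.55 for CDC45 and 0.42 for GINS1. Among clamp and clamp loader genes it was 0.93 for RFC3, 0.57 for RFC5, 0.55 for RFC4 and 0.42 for PCNA. Among polymerase genes it was 0.58 for POLD3, 0.56 for POLA1, 0.50 for POLE and 0.37 for POLD1. It was 0.43 for FEN1, 0.32 for LIG1, 0.50 for CHAF1A and 0.54 for E2F1. CCNE1 was the exception in sign, at -0.74. CDKN1A, outside the set, had an interaction of -1.17 (adjusted p = 6.8e-09).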

How the results depend on the processing

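Single-gene values of the named genes were set beside 3497 values under the alternatives. Of these, 3335 were classed as unchanged, 100 lost the call, 38 gained one and 0 reversed direction with a call. A change of sign in a value not called before or after was classed as unchanged. Values relative to the chromosome median had no test and were classed by their distance from the original value. A further 24 moved when expressed relative to the median of their chromosome. With library totals, 6 genes were higher and 10 lower in YTHDF1 KO against WT, 7 higher and 17 lower in the combined group against WT, and 6 lower in the combined group against YTHDF1 KO. With only the groups compared, 21 were lower in the combined group against YTHDF1 KO. The cause was not tested. As each library was left out, the counts ran from 5 to 14 lower and 0 to 1 higher in the combined group against YTHDF1 KO, 11 to 18 lower and 3 to 4 higher in YTHDF1 KO against WT, 38 to 41 lower and 1 higher in siARID1A against WT, and 22 to 28 lower and 2 to 3 higher in the combined group against WT. They ran from 20 to 28 higher in the combined group against siARID1A, 32 to 37 higher in YTHDF1 KO against siARID1A, and 21 to 25 higher and 1 lower for the interaction. With a replicate block, 14 genes were lower and 3 higher in YTHDF1 KO against WT, 40 lower and 1 higher in siARID1A against WT, 27 lower and 3 higher in the combined group against WT, 12 lower and 1 higher in the combined group against YTHDF1 KO, 27 higher in the combined group against siARID1A, 37 higher in YTHDF1 KO against siARID1A, and 24 higher and 1 lower for the interaction. The shares of all genes called under these alternatives are not given here, so the counts show only how far each depends on the processing. With 3 libraries per group, small changes may not pass the test.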
